A study of Mus musculus with 4 samples.

Results

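Gene expression at 24 h was compared with that at 6 h in E0771, a mouse breast carcinoma cell line, in cultures that received medium alone (vehicle) or interleukin 26 (IL-26). The members of the comparison are arrays, chosen by the time in their labels: the 2 arrays of 24 h (1 vehicle, 1 IL-26) against the 2 arrays of 6 h (1 vehicle, 1 IL-26), which are 4 of the 4 arrays of the series. IL-26, which belongs to the IL-10 cytokines, was given at 30 ng/ml, and all cells grew in RPMI1640 with serum. The study used E0771 as a mouse model of triple-negative breast cancer and asked how IL-26 alters its response to inhibitors of the epidermal growth factor receptor, but no inhibitor was given to the cells measured here. Each group had 1 array, so a difference between any pair of arrays has no replicate check. The comparison instead has the same step in time measured once without and once with IL-26, on separate arrays, and the results below turn on genes that moved the same way in both. Whether each array had a culture of its own is not in the labels, so p-values measure only the spread between these arrays. The longer incubation, the age of the medium and the density of the culture cannot be told apart in this design.

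Several well-known programmes can run in cultured tumour cells without any added agent, and they form the order of the results. Interferons act through receptors on the cell surface and transcription factors that bind interferon-stimulated response elements and switch on antiviral genes. Sterol regulatory element-binding protein 2 (SREBP2, gene Srebf2) switches on cholesterol synthesis when sterols run low. Stress at the endoplasmic reticulum (ER) or a shortage of amino acids leads to the factor ATF4 and its targets, whereas the chaperones of the ER answer mainly to ATF6 and XBP1, and hypoxia acts on glycolysis through HIF1.

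Signal was taken as the median intensity of each spot in arbitrary units, with the blank spots as background. The median gene spot lay between 78.0 and 84.4 on the 4 arrays, against blank spots with means between 49.6 and 56.5, and 18366 genes were above the limit of the blank spots (mean plus 2 SD) on at least 1 array and entered the comparison. That limit is low: from 32.3% to 52.1% of the negative control spots also passed it. Intensities of a gene are given below in the order vehicle, IL-26, and are raw, so they also hold differences between the arrays. The positive control spots had medians of 14940 and 13940 at 6 h, then 12180 and 10810 at 24 h. Differences are 24 h minus 6 h on the log2 scale after background correction with an offset of 50 and quantile normalization, so that 1 is a 2-fold difference, and the offset draws the differences of dim genes towards 0. Of the markers of cell types, Vim, the intermediate filament of mesenchymal cells, read 18772 and 19168 at 6 h, then 15944 and 15519 at 24 h, and Krt8, an epithelial keratin, 1838 and 1436, then 1747 and 1499. Epcam and Cdh1, defining markers of epithelium, stayed between 59.4 and 70.1, near the blank spots, and so did the leukocyte marker Ptprc (55.2 to 60.6) and the endothelial marker Pecam1 (51.6 to 57.4). Of the 6 mesenchymal markers, Cdh2 (59.0 to 63.8) and Fn1 (51.7 to 59.0) lay near the blank spots too, and the other 4 read higher. The epithelial label of a carcinoma line hence rested on Krt8 among these markers.

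The step from 6 to 24 h gave much the same pattern in both treatments. With vehicle, 149 genes were at least 2-fold higher (0.811% of those tested) and 47 at least 2-fold lower (0.256%). With IL-26, 145 genes were at least 2-fold higher (0.79%) and 51 lower (0.278%). Of these, 117 genes were higher in both (0.637%), which is 78.5% of the vehicle list and 80.7% of the IL-26 list, and 25 were lower in both (0.136%), which is 53.2% and 49.0%. No gene that passed 2-fold in one treatment moved the opposite way in the other, and 0 genes differed by as much as 1.25-fold in opposite directions. Spen came close to that cutoff (1.2499-fold higher in vehicle, 1.42-fold lower in IL-26), and so did Max (1.28-fold higher and 1.24-fold lower). Across the 18366 genes the time difference in vehicle and that in IL-26 correlated with a Pearson r of 0.86 and a Spearman rho of 0.71, as a description across genes, which are not independent replicates, on chips that share probes and normalization.

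**Figure D1:**
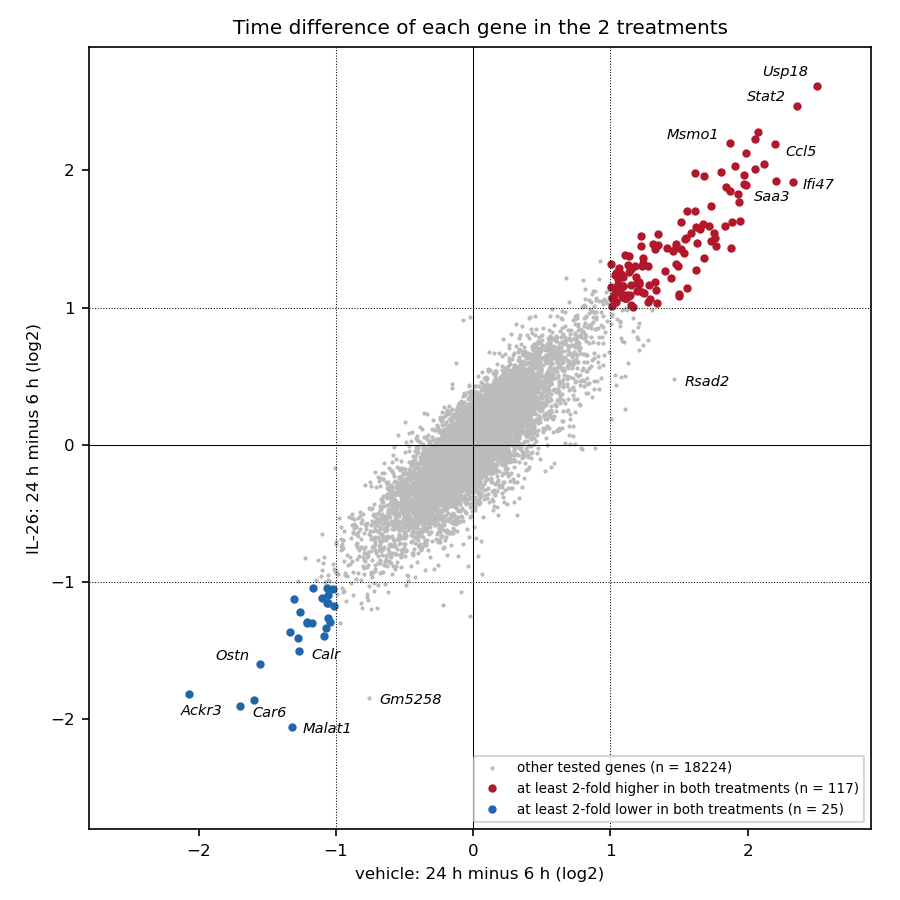
Time difference (24 h minus 6 h, log2) of each of the 18366 tested genes in vehicle (x axis) and in IL-26 (y axis), with dotted lines at 2-fold. The 117 genes higher (red) and the 25 genes lower (blue) in both treatments lie in opposite corners along 1 diagonal, and Gm5258 and Rsad2 lie off it.

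A limma fit of all genes, with treatment as a covariate, called 2709 genes higher (14.8%) and 2689 lower (14.6%) at 24 h at an adjusted p under 0.05. With the arrays scaled to a common median in place of quantile normalization, the split was 3753 higher and 2437 lower. Most of these differences were small, with a median of 1.25-fold for the genes called higher and 1.24-fold for those called lower. All 142 genes that passed 2-fold in both treatments were among them, with limma adjusted p-values from 6.5e-82 to 4.0e-16. These p-values rest on 1 residual degree of freedom per gene and on a prior worth 302.4 taken from all genes, so they measure the gap between the treatments in genes of like brightness and not the spread between cultures. With time alone in the fit, without treatment, 4781 genes were called. The 3 arrays that remain when 1 is left out cannot carry both terms with a test, so each array was left out of the fit with time alone, which gave 2717 calls without the vehicle array of 6 h and 2803 without the IL-26 array of 6 h. With each spot's local background in place of the blank spots, limma called 0 genes, with 1056 at an unadjusted p under 0.05. That local background follows the spot's own signal, with a Spearman rho of 0.898 to 0.934 over gene spots. The counts past 2-fold in both treatments moved with the offset, to 181 higher and 54 lower at an offset of 16 and to 57 and 8 at 150. In the values that the authors deposited 296 genes were higher and 141 lower in both treatments, among them 115 of the 117 and 25 of the 25. With the local background 67 were higher and 50 lower, among them 40 of the 117 and 7 of the 25, and 5 of the 117 turned direction.

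The genes that passed 2-fold in both treatments differed in size and brightness by direction. The 117 higher genes went from a median intensity of 189.3 to 536, and 7 of them rose at least 4-fold in both treatments. The 25 lower genes were bright at 6 h, with a median intensity of 720.0, and went to 295, and 0 of them fell 4-fold in both. At the threshold, Tacc3 (1.005 in vehicle and 1.15 in IL-26) was just inside and Nusap1 (1.11 and 0.999) just outside on the higher side, and Zfp113 (-1.02 and -1.17) just inside and Sdc1 (-1.28 and -0.995) just outside on the lower side. Gene lists held 69 of the 117 and 12 of the 25. In all, 8 of the 117 had a spot beside a very bright one (10000 or more), namely Bst2, Cyp51, D17H6S56E-5, Gbp2, Gbp9, H2ac20, Parp10 and Pkm, and the part of that light in their values was not tested.

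**Figure D2:**
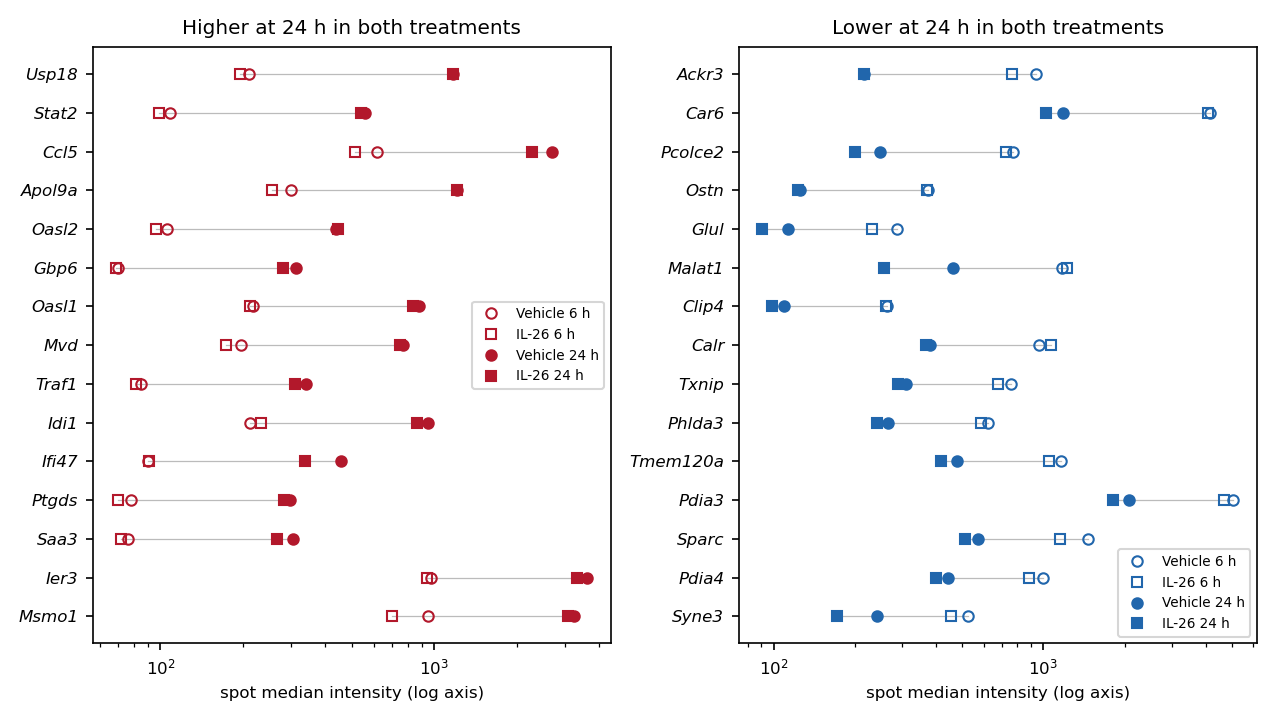
Spot median intensity (log axis) of the 15 genes with the largest rise and the 15 with the largest fall in both treatments, with open symbols for 6 h, filled symbols for 24 h, circles for vehicle and squares for IL-26. For every gene the values of the 2 times do not overlap, which follows largely from picking the genes by that difference. Malat1 shows the widest gap between the treatments at 24 h (461 and 256).

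Genes of the interferon response led the rise. Usp18, the protease that removes ISG15 from proteins and damps interferon receptor signalling, read 211 and 196 at 6 h, then 1165 and 1169 at 24 h. Both 24 h arrays lay far above both 6 h arrays, and the rise of 2.56 ± 0.11, or 5.89-fold, was the largest of all genes. Each ± is the SE of the limma fit (n = 2 arrays per time, a vehicle and an IL-26 array). Like the p-values, it rests mostly on the prior from all genes and not on the gene's own spread. For Ifi47 it was 0.08, with differences of 2.33 in vehicle and 1.91 in IL-26. Stat2, a transcription factor of type I interferon signalling, followed, with 109 and 99.1 at 6 h, then 559 and 539.8 at 24 h (2.41 ± 0.09). Isg15, the ubiquitin-like protein that USP18 cleaves off, read 642 and 591 and then 2318 and 2037 (1.88 ± 0.11). The antiviral genes Oasl2, with 105 and 96.5 at 6 h, then 439 and 445 at 24 h, and Oasl1, with 217 and 213, then 879 and 838, rose by 2.14 and 2.03. For each of these genes vehicle and IL-26 lay close together at the same hour.

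Whole families moved with them. Of the 15 guanylate-binding proteins and immunity-related GTPases tested, which attack vacuoles of intracellular microbes, 15 rose and 0 fell, with a median difference of 1.27 against 0.00 over all genes. They ran from Ifi47 (2.12 ± 0.08), with 90.3 and 90.8 at 6 h, then 455 and 336 at 24 h, and Gbp6 (2.08), with 69.9 and 69.1, then 313 and 281, through Gbp8 (1.86), Gbp3 (1.61), Igtp (1.52), Irgm2 (1.52), Irgm1 (1.02) and Gbp4 (0.66) down to Tgtp1 (0.09), which stayed near the blank spots. Of the 24 OAS, IFIT and other antiviral effectors, 23 rose, 0 fell and Ifitm1 (0.05) did not pass the test, and their median was 0.95. The 2'-5'-oligoadenylate synthetases and their relatives were high among them (Oas2 (1.66), Oas1g (1.64) and Oas1a (1.61)), as were Xaf1 (1.66), Slfn2 (1.65) and Bst2, the tetherin of budding viruses (1.47), whereas Ifit1 (0.68), Mx1 (0.50), Ifit2 (0.48) and Eif2ak2 (0.37) rose less. All 5 genes of ISG15 conjugation rose, the others being Ube2l6 (0.94), Trim25 (0.92) and Herc6 (0.87).

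Upstream of these effectors the genes divided. Of 19 genes of interferon signalling, 7 rose, 4 fell and 8 did not pass. Those that rose were the transcription factors Stat2 (2.41), Irf7 (1.63), Irf9 (1.11), Irf1 (0.69), Irf3 (0.38), Stat3 (0.28) and Irf8 (0.24). Those that fell were the receptor chains Ifnar1 (-0.41) and Ifnar2 (-0.20), the inhibitor Socs1 (-0.22) and the ligand Ifnb1 (-0.12), of which Ifnb1 was dim throughout, at 83.9 and 84.6 at 6 h, then 80.8 and 75.3 at 24 h. With time alone in the fit, the calls of Ifnb1 and Socs1 were lost (limma adjusted p = 0.053 and 0.0721), while those of Ifnar2, Stat3, Irf8 and Irf3 held with all 4 arrays. In that fit Ifnar2 lost its call with any 1 array left out (differences of -0.21 to -0.19), Stat3 and Irf8 with any of 3 arrays left out, and Irf3 with either of 2. Of 13 sensors of foreign nucleic acid, 7 rose, with the RNA helicases Dhx58 (1.37) and Ddx58, which encodes RIG-I (1.09), and the DNA-binding Ifi204 (1.13) at the top, and Cgas fell (-0.11). Of 17 genes of MHC class I and antigen processing, 13 rose and 0 fell, with a median of 0.53. The immunoproteasome subunit Psmb10 (1.33) and the proteasome activator Psme1 (1.20) passed 2-fold in both treatments, and Tap1 (0.72), B2m (0.58) and H2-K1 (0.46) rose less. Tapbp was called at 0.93, but as the mean of 2 probes that moved in opposite directions.

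Further genes known as interferon-induced stood outside the lists and are named here after their values were seen. Apol9a, of the apolipoprotein L family, read 299.8 and 256 at 6 h, then 1208 and 1214 at 24 h (2.17 ± 0.11), and its near copy Apol9b rose by 1.74. Of the ADP-ribosyltransferases, Parp9 (1.72), Parp10 (1.39), Parp12 (1.33) and Parp14 (1.10) passed 2-fold in both treatments. So did Samd9l (1.86), Lgals3bp (1.80), Rtp4 (1.30), Ifi203 (1.40), Ifi211 (1.09), Adar (1.22), Ly6e (1.19), Isg20 (1.16), Trim30a (1.17) and Cmpk2 (1.08). The probes of near-identical copies (the Gbp, Oas1, Apol9 and Ifi200 genes) may bind RNA of their relatives, so each value stands for the probe rather than for 1 gene with certainty. Among the 117 genes, 22 had another of the 117 within 3 tested genes on the chromosome, in 9 groups, such as Gbp8, Gbp9, Gbp10 and Gbp6 on chromosome 5, Gbp3 and Gbp2 on chromosome 3, Parp14 and Parp9 on chromosome 16, and Psme1 and Irf9 on chromosome 14. Of the 25 lower genes, 0 lay so close to each other, but a smaller set has fewer chances of a neighbour. The share in other sets of these sizes was not computed, and most of the groups are gene families. Whether the higher genes lie closer together than other genes was hence not tested.

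Promoters were searched for the core of the interferon-stimulated response element, GAAANNGAAA, on either strand, in the 300 bases around the start of each gene that has 1 promoter in the RefSeq table (250 before, 50 after). It was found in 16 of 74 promoters of genes higher in both treatments (21.6%), 1 of 19 of genes lower in both, 3.45% of all tested genes and 3.58% of all 22862 promoters. Of the list of guanylate-binding proteins and GTPases 8 of 9 held it, and of the antiviral effectors 11 of 19. The promoter of Isg15 is shown because its gene rose 3.68-fold and because it holds 3 overlapping matches, which start 78 bases before the gene and stand in capitals. The 250 bases before the gene, from RefSeq (GRCm38.p6, chr4:156200819-156201068, minus strand), read 5′ to 3′ as follows.
Isg15: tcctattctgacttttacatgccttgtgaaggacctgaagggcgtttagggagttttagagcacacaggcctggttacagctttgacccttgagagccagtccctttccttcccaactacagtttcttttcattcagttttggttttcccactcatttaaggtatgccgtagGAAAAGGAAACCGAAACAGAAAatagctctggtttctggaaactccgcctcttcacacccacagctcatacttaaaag
A match is a description of the letters and does not show that a factor was bound.

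Chemokines and genes of the NF-kB pathway rose as well. Ccl5, which attracts T cells, read 616 and 513 at 6 h, then 2682 and 2264 at 24 h, a rise of 2.20 ± 0.11, with 2.20 in vehicle and 2.20 in IL-26. Ccl2, which attracts monocytes, went from 2191 and 2006 to 6077 and 5457 (1.56 ± 0.11), and Cxcl10, a ligand of CXCR3, went from 613 and 575 to 1711 and 1488 (1.47 ± 0.11). Of 15 chemokine genes 7 rose, the others being Cxcl1 (1.16), Cxcl9 (0.995), Cxcl2 (0.92) and Ccl20 (0.90), 2 fell and 6 did not pass. The genes that fell were Cx3cl1 (-0.29) and Ackr3, an atypical receptor that takes up CXCL12, which showed the largest fall of all genes averaged over the treatments, by 2.07 in vehicle and 1.82 in IL-26, from 939 and 766 at 6 h to 217 and 216 at 24 h (-1.94 ± 0.10). Cxcl12 itself did not pass (0.01, from 2 probes that moved in opposite directions).

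Of 22 NF-kB subunits, inhibitors and targets, 16 rose, 0 fell and 6 did not pass (median 0.58). Traf1, an adaptor of TNF receptors, read 85.2 and 81.2 at 6 h, then 339 and 310.1 at 24 h (1.97 ± 0.08), which is 1.97 in vehicle and 1.96 in IL-26. Of the genes that hold NF-kB in check, Nfkbie (1.21), Nfkbia (1.05) and Tnip1 (0.95) rose, and so did the subunits Relb (1.08) and Nfkb2 (0.99), the adhesion molecules Icam1 (0.93) and Vcam1 (0.57) and the cytokines Csf2 (0.90) and Tnf (0.76). Rela, the main activating subunit, did not pass (0.23), nor did Tnfaip3 (0.10), Rel (0.06) or Il1b (0.00). Of 13 acute-phase and secreted defence genes, 4 rose and 4 fell, of which the call of Lrg1 rests on the IL-26 array of 6 h (56.2 and 101 at 6 h, then 60.1 and 55.8 at 24 h). Saa3, a serum amyloid A made outside the liver, read 76.2 and 72.1 at 6 h, then 306 and 266 at 24 h (1.94 ± 0.07), whereas Lcn2, the iron-scavenging lipocalin that is often measured beside it, fell from 314 and 287 to 165 and 149 (-0.94 ± 0.09). The kappa-B letters GGGNNTTTCC were found in 2 of 74 promoters of the genes higher in both treatments, against 1.6% of all promoters.

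**Figure D3:**
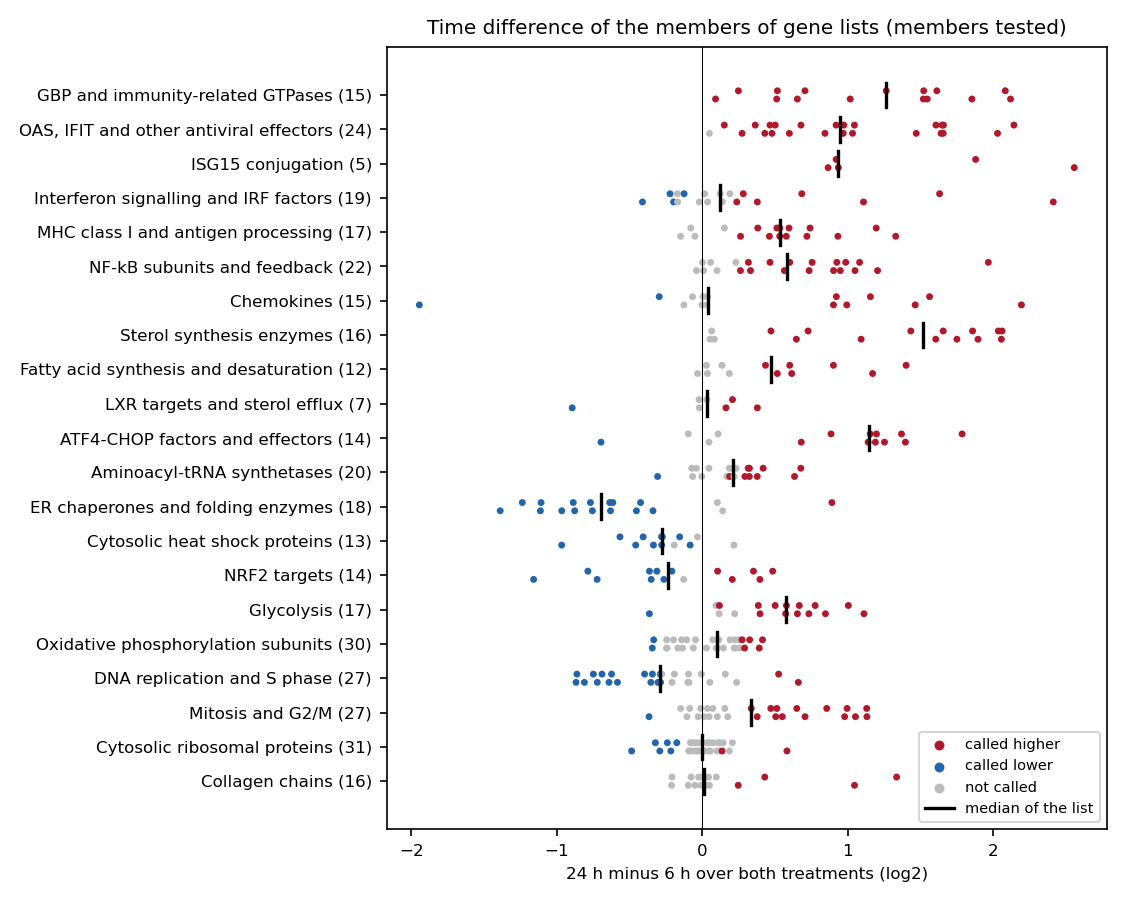
Time difference over both treatments (log2, x axis) of each tested member of 21 gene lists, with the number of members in brackets, red for called higher, blue for called lower and grey for not called by limma, and a black bar at the median. The bars of the GTPases (1.27), sterol synthesis enzymes (1.52) and ATF4-CHOP genes (1.15) lie farthest to the right, and that of the ER chaperones (-0.69) farthest to the left.

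The enzymes of cholesterol synthesis rose nearly along the whole pathway. Of 16 enzymes tested, 13 rose, 0 fell and 10 passed 2-fold in both treatments, with a median of 1.52, the highest of the 55 lists. Near the start of the pathway, Hmgcs1, which makes HMG-CoA, read 127 and 129 at 6 h, then 472 and 498 at 24 h (1.86 ± 0.09). In the mevalonate branch, Mvk rose by 1.09, Mvd went from 197 and 173 to 768 and 748 (2.06 ± 0.10), and Idi1, the isopentenyl diphosphate isomerase, from 212 and 233 to 950.2 and 868 (2.06 ± 0.10). The commitment to sterols followed with Fdft1, squalene synthase (1.66), and Sqle, squalene epoxidase (1.44).

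After lanosterol, Cyp51 (1.61), Tm7sf2 (1.75) and Nsdhl (1.90) rose, and Msmo1, the methylsterol monooxygenase, read 947 and 698 at 6 h, then 3233 and 3079 at 24 h (2.04 ± 0.11). Dhcr7 (0.73) and Sc5d (0.65), of the last steps, and Hsd17b7 (0.47) rose less. The 3 enzymes that did not pass were Ebp (0.08), Lss (0.07) and Pmvk (0.05), so the rise did not take in every step.

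The regulators of sterols moved unequally. Of 9 genes of sterol sensing and uptake, 4 rose and 2 fell. Srebf2 rose from 202 and 168 to 429 and 373 (1.13 ± 0.09), and Insig1, which holds SREBP in the ER, from 149.8 and 141 to 272 and 261 (0.87 ± 0.08), beside the sterol carrier Stard4 (0.99) and Npc2 (0.63). Scap, the escort of SREBP (-0.49), and Npc1, which exports cholesterol from lysosomes (-0.45), fell. Srebf1, the sister gene that drives fatty acid synthesis, did not pass (-0.02). Of 12 genes of fatty acid synthesis and desaturation 7 rose and 0 fell (median 0.48), led by Acly, the source of cytosolic acetyl-CoA (1.40), and the desaturase Scd1 (1.17), while Fasn (0.19) and Acaca (0.14) did not pass. Of 7 targets of LXR, the sensor of surplus sterol, 3 rose and 1 fell, namely Abcg1, which exports cholesterol, from 375 and 317 at 6 h to 191 and 176 at 24 h (-0.89 ± 0.09).

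The letters of the sterol regulatory element, TCACNCCAC, were found in 3 of 74 promoters of the genes higher in both treatments (4.05%), 1 of 19 of those lower in both, 1.16% of all tested genes and 1 of 12 of the sterol enzymes with 1 promoter. Hmgcs1 is the enzyme that held it. Its match starts 137 bases before the gene (GRCm38.p6, chr13:119690101-119690350, plus strand), in capitals, and the 250 bases before the gene are shown as the promoter of an early step of the pathway.
Hmgcs1: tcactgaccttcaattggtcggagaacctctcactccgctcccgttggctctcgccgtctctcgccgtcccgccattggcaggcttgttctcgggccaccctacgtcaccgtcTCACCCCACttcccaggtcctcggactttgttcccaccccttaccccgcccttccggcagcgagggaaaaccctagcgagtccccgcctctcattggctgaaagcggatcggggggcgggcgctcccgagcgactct

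Stress genes of the ER went in opposite directions. On one side, of 14 factors and effectors of the ATF4-CHOP arm, 10 rose, 1 fell and 3 did not pass (median 1.15). Atf4 itself rose from 2337 and 2439.5 to 3949.6 and 4323 (0.89 ± 0.11), and Ddit3, which encodes CHOP, from 659 and 708 to 1539 and 1416 (1.16 ± 0.11). Ddit4, an inhibitor of mTORC1, showed the largest rise of the list, from 167 and 185 to 640.0 and 574 (1.79 ± 0.10). The pseudokinase Trib3 (1.19), the glutathione-degrading Chac1 (1.37), Atf3 (1.40), Nupr1 (1.25) and Herpud1 (1.20) and the phosphatase subunit Ppp1r15a, which reverses the block of translation (1.14), rose too. Atf5 fell (-0.70), and Sesn2 (0.11), Fgf21 (0.05) and Cebpg (-0.10) did not pass.

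On the other side, of 18 ER chaperones and folding enzymes 15 fell, 1 rose and 2 did not pass (median -0.69, the lowest of the 55 lists). Hspa5, the master chaperone BiP, went from 16689 and 16629 at 6 h to 10476 and 7512 at 24 h (-0.77 ± 0.09), and Hsp90b1, also called GRP94, from 12638 and 11928 to 5873 and 5594 (-0.96 ± 0.09). The lectin chaperone Calr fell from 964 and 1068 to 381 and 367 (-1.39 ± 0.11), and the disulfide isomerase Pdia3 that works with it from 5070.2 and 4661 to 2077 and 1816 (-1.24 ± 0.11). Pdia4 (-1.11) and Sdf2l1 (-1.11) also passed 2-fold in both treatments, and Dnajb11 (-0.89), Pdia6 (-0.88), Canx (-0.75), Dnajc3 (-0.63) and Hyou1 (-0.42) fell less. The exception was Ero1a, the oxidase that drives disulfide formation, which rose from 297 and 331 to 569 and 584 (0.89 ± 0.10). For all 15 genes that fell and for Ero1a, the 24 h arrays did not overlap the 6 h arrays in intensity. That is a description of genes picked by their call, and the share over all genes was not computed.

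The genes of XBP1 and ATF6, the factors named above for the ER chaperones, rose while 15 of the 18 chaperones and folding enzymes fell. Xbp1 rose from 658 and 701 to 1295 and 1408 (1.04 ± 0.11) and Atf6 by 0.63. They were counted with ER-associated degradation, a list of 13 genes of which 4 rose and 6 fell, with Edem3 lowest (-0.71). Its largest rise was that of Herpud1 (1.20), which is also a member of the ATF4-CHOP list. Among genes of metabolism known as ATF4 targets, fewer members passed the test. Of 12 genes of serine, one-carbon and asparagine synthesis, 3 rose and 9 did not pass, and Asns, the asparagine synthetase, read 3917 and 4151 at 6 h, then 3394 and 3446 at 24 h (-0.13 ± 0.11, adjusted p = 0.41, limma). Of 10 amino acid transporters 6 rose, led by Slc6a9 (0.95) and Slc1a4 (0.63), and Slc7a5, the exchanger of large neutral amino acids, fell (-0.47). Of 20 aminoacyl-tRNA synthetases 9 rose and 1 fell, with Cars (0.68) and Nars (0.64) on top. Whether these lists differ from one another was not tested.

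The C/EBP-ATF element, TGATGNAA, was found in 8 of 74 promoters of genes higher in both treatments (10.8%), 1 of 19 of genes lower in both and 3.11% of all tested genes, and in 6 of 13 promoters of the ATF4-CHOP list. The ER stress response element of ATF6, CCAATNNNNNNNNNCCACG, was rare, in 0.131% of all promoters, yet 7 of 15 promoters of the ER chaperones held it, and 0 of 74 of the genes higher in both did. Chac1, which rose, and Calr, which fell, are shown as the pair that carries these elements, with the match in capitals, 193 bases before the gene in Chac1 (GRCm38.p6, chr2:119350992-119351241, plus strand) and 162 bases before the gene in Calr (GRCm38.p6, chr8:84846932-84847181, minus strand). Both matches lie on the strand opposite to the gene, so the capitals are the reverse complement of the letters above.
Chac1: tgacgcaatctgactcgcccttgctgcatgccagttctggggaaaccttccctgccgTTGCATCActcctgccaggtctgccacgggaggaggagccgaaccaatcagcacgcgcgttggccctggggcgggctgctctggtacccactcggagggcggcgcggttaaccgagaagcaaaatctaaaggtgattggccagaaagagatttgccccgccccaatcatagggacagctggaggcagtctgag
Calr: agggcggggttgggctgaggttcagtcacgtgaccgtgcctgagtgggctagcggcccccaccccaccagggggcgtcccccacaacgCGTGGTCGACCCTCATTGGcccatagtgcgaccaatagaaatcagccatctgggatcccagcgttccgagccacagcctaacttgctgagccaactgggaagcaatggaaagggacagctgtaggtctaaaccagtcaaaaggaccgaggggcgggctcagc

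**Figure D4:**
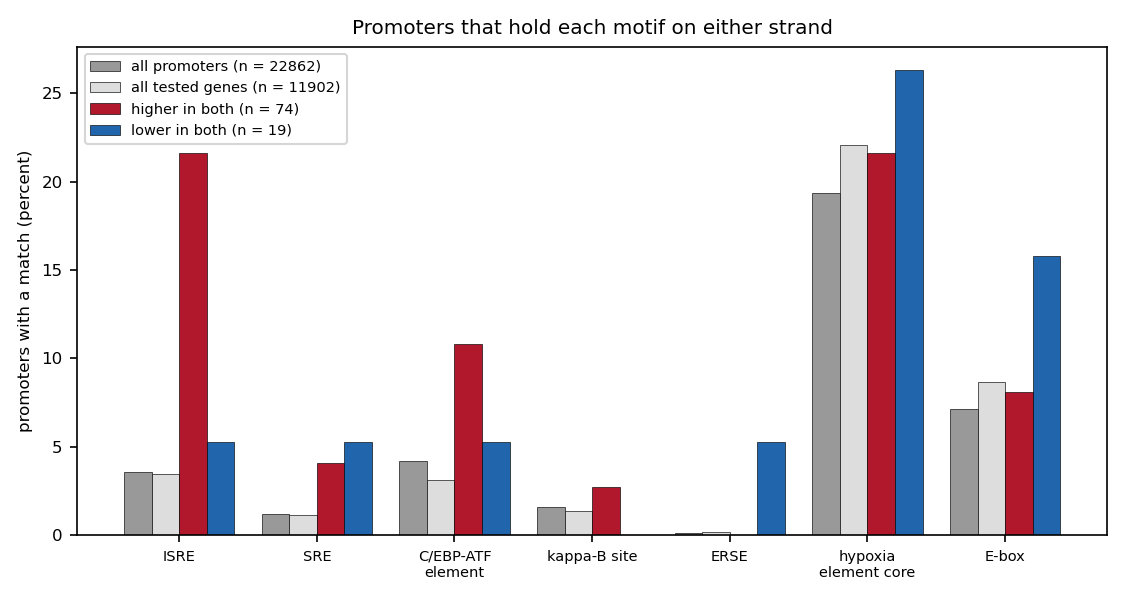
Percent of promoters that hold each of 7 motifs on either strand (y axis, from 0), for all promoters, all tested genes and the genes higher or lower in both treatments. The interferon element stands at 21.6% for the higher genes against 3.58% for all promoters, whereas for the hypoxia core and the E-box the higher genes lie close to all tested genes.

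Other stress systems mostly went down. Of 13 cytosolic heat shock proteins 0 rose, 10 fell and 3 did not pass (median -0.28), with Dnajb1, a partner of HSP70, from 2057 and 1693 to 955 and 862 (-0.97 ± 0.11). Of 14 targets of NRF2, the factor of the antioxidant response, 8 fell and 5 rose. Hmox1, heme oxygenase, fell from 2090.0 and 1579 to 937 and 650.0 (-1.16 ± 0.11), and both subunits of glutamate-cysteine ligase, Gclc (-0.72) and Gclm (-0.79), fell with it, while Nfe2l2, the gene of NRF2 (0.49), and Sqstm1 (0.40) rose. The metal-binding metallothioneins Mt1, with 9907 and 9332 at 6 h, then 4428 and 4406 at 24 h, and Mt2, with 8772 and 10496, then 4605 and 4383, fell by 0.97 and 0.98, and the zinc transporters of their list did not pass.

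Glycolysis and a part of the hypoxia genes rose. Of 17 genes of glycolysis 13 rose, 1 fell and 3 did not pass (median 0.57), with Pfkl, the liver-type phosphofructokinase, from 244 and 202 to 446 and 440.0 (1.01 ± 0.10), and Pkm (1.11), Tpi1 (0.85), Pgk1 (0.78), Ldha (0.67) and Hk2 (0.66). Aldoc fell (-0.36). Of 17 hypoxia-inducible genes 9 rose and 3 fell. The largest rise among them was that of Ddit4 (1.79), which is also a member of the ATF4-CHOP list. Bnip3, a receptor of mitophagy, rose from 222 and 209 to 746 and 571 (1.61 ± 0.10), more in vehicle (1.77) than in IL-26 (1.45), Ndrg1 by 1.09 and Vegfa by 0.58, from 117 and 110.4 to 178 and 165. Car9, a marker of hypoxic tumour cells, did not pass (0.02), and Car12 (-0.22), Egln1 (-0.42) and P4ha1 (-0.45) fell. The hypoxia core ACGTG was in 10 of 12 promoters of that list, but in 21.6% of the genes higher in both treatments, close to the 22.1% of all tested genes.

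In contrast, Txnip, which curbs glucose uptake, fell from 761 and 679 to 309.6 and 289.8 (-1.24 ± 0.10), and Glul, glutamine synthetase, from 286 and 232 to 113 and 90.8 (-1.35 ± 0.08). Glul was the 1 gene that fell among 10 genes of glutamine and glutamate metabolism, of which 6 rose, led by Got1 (0.68). Of 30 subunits of oxidative phosphorylation 23 did not pass, 5 rose and 2 fell (median 0.10). Of 31 cytosolic ribosomal proteins 2 rose and 6 fell, and of 26 proteasome subunits 8 rose and 3 fell, against 14.8% and 14.6% of all genes. Actb (0.04) did not pass, whereas Gapdh (0.50), from 16026 and 13277 to 18893 and 16889 and beside a very bright spot, did.

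**Figure D5:**
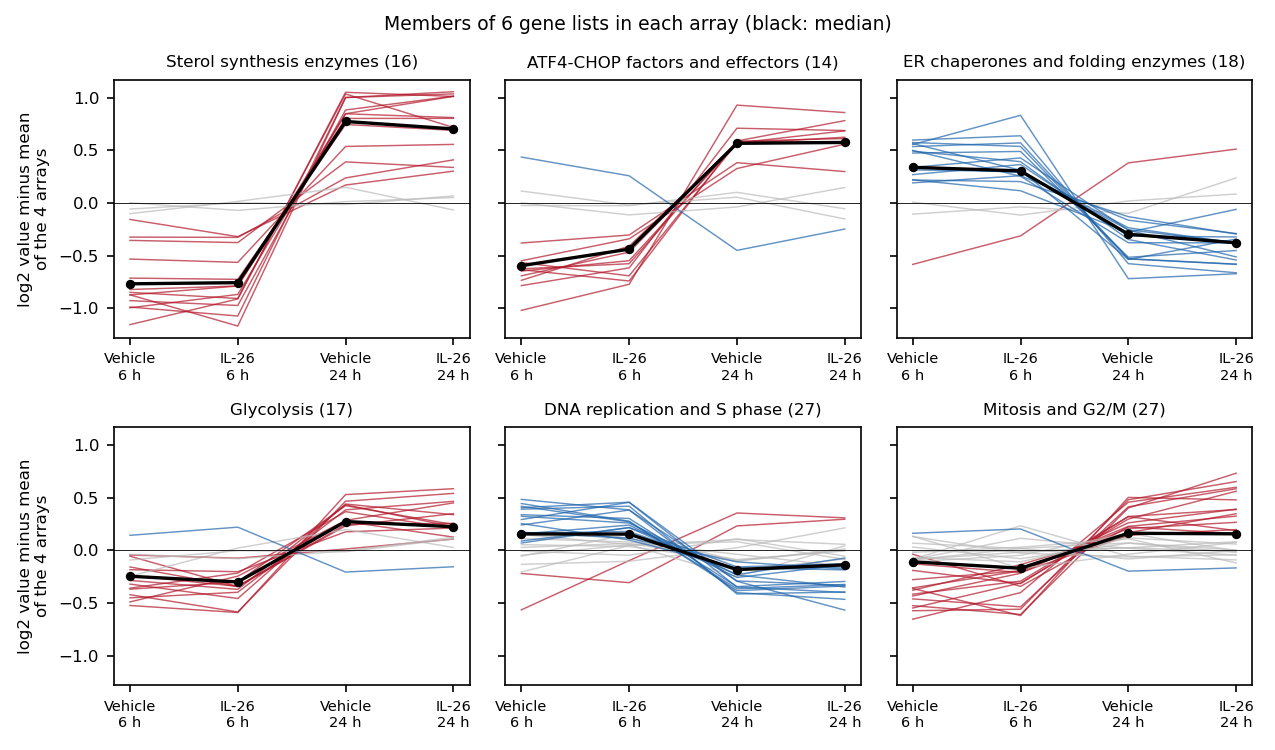
Log2 values of each member of 6 gene lists in the 4 arrays (x axis), minus the member's own mean over the arrays, with red lines for members called higher, blue for called lower, grey for not called, and the median in black. In each list the median steps between 6 h and 24 h and differs little between vehicle and IL-26 at the same hour.

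The cell cycle genes changed in their make-up. Of 27 genes of DNA replication and S phase 15 fell, 2 rose and 10 did not pass (median -0.29). Ccne1, the cyclin of S phase entry, fell from 496 and 424 to 264 and 235 (-0.87 ± 0.10), and Rrm2, which makes deoxynucleotides, from 863 and 820.0 to 508 and 397 (-0.86 ± 0.11), with Cdc6 (-0.81), Gins1 (-0.75), Slbp (-0.72) and Tyms (-0.69) beside them. Cdc45 (0.66) and Pole (0.53) rose, and of the helicase subunits Mcm4 fell (-0.30) while Mcm2 (-0.09), Mcm3 (-0.28) and Mcm5 (-0.10) did not pass. Of 27 genes of mitosis 14 rose, 1 fell and 12 did not pass (median 0.34). Tpx2, which builds the spindle, rose from 614 and 534 to 1121 and 1307 (1.13 ± 0.11), and Bub1b, of the spindle checkpoint, by 1.13, with Cenpa (0.997), Bub1 (0.86), Plk1 (0.51) and Mki67 (0.47). Cdk1 fell (-0.36). In RNA of whole cultures, fewer cells in a phase and less RNA per cell cannot be told apart.

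Of the D-type cyclins that start the cycle 2 fell and Ccnd3 did not pass (-0.07). Ccnd1 fell from 853 and 721 to 490.1 and 442 (-0.71 ± 0.11) and Ccnd2 from 4615 and 4742 to 2872 and 2459 (-0.74 ± 0.11). The inhibitor Cdkn1a, also called p21, rose (0.54) and Cdkn1b, p27, fell (-0.25), so that 3 of 15 genes of this list fell and 11 did not pass. With time alone in the fit Cdkn1a was called (0.54), but no longer without the IL-26 array of 6 h (0.36). Of 17 targets of p53 8 rose, with Plk2 (0.92) and Bbc3 (0.61) first, and 2 fell, Ccng1 (-0.75) and Phlda3, a repressor of AKT, from 624 and 588 to 265 and 242 (-1.25 ± 0.10). Of 27 genes of ribosome biogenesis and MYC targets 8 fell and 3 rose, with Nhp2 lowest (-0.87) and Myc itself among those that rose (0.31), a call that was lost with time alone in the fit (limma adjusted p = 0.0721). Outside the lists, and named after their values were seen, 5 probes of histone H2A genes (H2ac10, H2ac15, H2ac20, H2ac22 and H2ac24) passed 2-fold in both treatments, with differences from 1.04 to 1.24. These genes are near copies of each other, and their probes are not independent. The list of other replication-dependent histones gave 6 higher and 1 lower of 14.

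Transcription factors of early response and of the clock moved singly. Ier3, an early response gene that acts on survival, was bright, with 971 and 942 at 6 h, then 3618 and 3313 at 24 h (1.94 ± 0.11), and the small MAF factors Mafk (1.26) and Maff (1.16) rose. Fos read 62.2 and 64.0 and then 67.9 and 64.7 (0.02) and did not pass, and Jund (-0.64) and Jun (-0.40) fell. Egr1 was below the limit on both 6 h arrays (50.9 and 50.7) and just above it at 24 h (61.3 and 56.1). The mean of the blank spots also went up, from 49.6 and 50.2 to 56.5 and 51.9, so the size of any change in Egr1 is uncertain. Of 17 clock genes 6 rose, 1 fell and 10 did not pass. The activator Arntl, also called BMAL1, rose from 128 and 117 to 287 and 281 (1.22 ± 0.08), among the repressors Nfil3 (1.63), Ciart (1.06) and Per1 (0.32) rose, Cry1 fell (-0.25), and Nr1d1 (0.15) and Dbp (0.09), which BMAL1 drives, did not pass. The E-box CACGTG bound by BMAL1 was in 8.11% of promoters of the genes higher in both treatments and in 8.67% of all tested genes, and each such match also holds the hypoxia core.

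Car6, a secreted carbonic anhydrase, was very bright at 6 h, with 4133 and 4077, and fell to 1186 and 1025 (-1.80 ± 0.11). Pcolce2, which enhances the processing of procollagen, went from 769.9 and 727 to 249 and 199.5 (-1.73 ± 0.10), and Ostn, a secreted peptide known as osteocrin or musclin, from 375 and 369.6 to 125 and 123 (-1.58 ± 0.09). Sparc, a matrix protein that binds collagen, fell from 1468 and 1154 to 572 and 511 (-1.21 ± 0.11), and Timp1, an inhibitor of metalloproteinases, from 529 and 479 to 249.9 and 195 (-1.17 ± 0.10). Of 16 collagen chains 4 rose, 0 fell and 12 did not pass, with Col6a1 from 452 and 378 to 1009 and 1006 (1.34 ± 0.11), and Col1a1 was near the blank spots throughout (66.0 and 65.8, then 67.1 and 64.4).

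Syne3, which encodes nesprin-3 and ties the nucleus to intermediate filaments, fell by 1.24, and Tmem120a, a protein of the nuclear envelope, went from 1162 and 1049 to 479 and 418 (-1.25 ± 0.11). The calcium-activated potassium channel Kcnn4 (-1.11), the chloride-proton exchanger Clcn4 (-1.08), the BCL2 relative Bok (-1.11), the RNA helicase Ddx6 (-1.06), Clip4 (-1.34), Ndrg4 (-1.20), the actin regulator Avil (-1.04) and Zfp113 (-1.09) completed the 25. Malat1, a long non-coding RNA of nuclear speckles, read 1177 and 1224 at 6 h, then 461 and 256 at 24 h as the mean of 2 probes, and its fall was deeper in IL-26 (-2.05) than in vehicle (-1.32). Of the receptor kinases, Fgfr1 fell (-0.67), and Epha3, which the study examined as a partner of IL-26, read 139 and 75.3 at 6 h, then 89.3 and 63.0 at 24 h (-0.46 ± 0.05), so that the 6 h IL-26 array lay below the 24 h vehicle array and the times overlapped. Its probe lay beside a very bright spot, and its call was lost with time alone in the fit (limma adjusted p = 0.15).

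Among genes higher in both treatments and outside any list (48 of 117), several encode enzymes and receptors, named here after their values were seen. Ptgds, which makes prostaglandin D2, read 78.1 and 70.3 at 6 h, then 298 and 282 at 24 h (1.97 ± 0.08), and Gch1, the first enzyme of tetrahydrobiopterin synthesis, 144 and 122 and then 409.8 and 371 (1.57 ± 0.09). Slc2a6 (1.35), Pcyt2, which makes phosphatidylethanolamine precursors (1.44), the TNF receptor family member Tnfrsf9 (1.19), Tnfaip2 (1.18), the galectin Lgals9 (1.25) and the condensin subunit Ncapd2 (1.23) rose likewise. Among genes of the lists, Casp4, the caspase that senses intracellular lipopolysaccharide, rose from 263 and 258 to 789 and 622 (1.45 ± 0.10), and Fabp4, a lipid carrier of adipocytes and macrophages, from 133 and 124 to 323 and 305 (1.29 ± 0.08), while the adipocyte marker Plin1 did not pass (0.04) and Adipoq lay below the limit on all 4 arrays. Of 10 leukocyte markers 0 rose and 2 fell, Lyz2 (-0.51) and Cd4 (-0.11), and of 8 endothelial markers 0 rose and 1 fell. The summed intensity of the 5 defining leukocyte markers went from 637 and 601 at 6 h to 566 and 583 at 24 h, of which Cd68 made up 421 and 388 and then 333 and 367. The other markers in that sum lay near the blank spots, and the part of such cells in the rise of immune genes was not tested.

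The size of the step differed between the treatments for a few genes, with no test because each rests on 4 single arrays. Gm5258 fell by 0.76 in vehicle and by 1.84 in IL-26, from 1049.5 and 900.4 at 6 h to 594 and 248 at 24 h, with the 24 h IL-26 array standing apart. Rsad2, which encodes the antiviral protein viperin, rose by 1.46 in vehicle and by 0.48 in IL-26, and it was higher with IL-26 at 6 h (1006 and 1323) and lower with it at 24 h (2610.2 and 1737). The immunoproteasome subunit Psmb8 showed the same order, with 485 and 597 and then 930.3 and 680.3 (1.004 and 0.19). Trps1 read 127 and 193 at 6 h, then 121 and 92.5 at 24 h (-0.09 and -1.07), with the 6 h IL-26 array highest. Over all genes, 3 had time differences at least 2-fold apart between the treatments, Gm5258 and the dim Olfr197 and Fpr-rs3, and among the 117 higher genes the gap was 0.45 at most, with a median of 0.12.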

How the data were processed

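Total RNA of E0771 cells was amplified, labelled with Cy5 and hybridised to 4 one-colour 3D-Gene mouse chips, and the authors deposited spot median and local background intensities at 635 nm, merged from 3 scanner gains with nothing subtracted, and a second table of processed intensity values whose steps are not given in the sources used here (each array's median is 25). Here, 7 spots marked by the scanner were dropped, blank spots (384 per array) served as background for normexp (offset 50), and log2 values were quantile normalized and averaged per probe and gene in limma 3.58.1 (R 4.3.3). Of 23473 probes, 20690 carried 1 gene symbol of the platform annotation, 2783 carried none, and 20565 matched RefSeq. Genes whose signal exceeded the blank spots' mean by 2 of their SDs on any array (18366) were fitted with time and treatment, with a trended eBayes prior and Benjamini-Hochberg adjustment over all of them. With 2 arrays per time, the number of arrays limits the precision. The fit was tested on simulated gene values with independent noise. That test does not cover the background correction, the normalization or variation between cultures.

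The gene lists and the rule for named genes were chosen with earlier results of these data known. The rule named the 15 highest and 15 lowest genes that passed 2-fold in both treatments, were brighter than the median and lay away from very bright spots, the leading 3 called members of each list in each direction, and a short fixed set. Other genes were named after their values were seen, and some items are not reported here. Alternatives covered the scaling, the offset, the local background, the deposited processed values, the filter, spots beside bright ones, the prior, the covariate, the fold threshold and leaving out each array (with time alone in the fit, for want of degrees of freedom).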

Additional observations from a re-analysis of the deposited data

Results flagged for a closer look

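Of the probes with no gene symbol, 14 rose past 2-fold and 6 dropped past 2-fold between the times in both treatments, and their genes are not named here. Control positions outside the gene spots gave signal above the limit of the blank spots. For negative control spots the share was 40.6% on the vehicle array and 52.1% on the IL-26 array of 6 h, and 32.3% and 42.7% on those of 24 h. For empty positions it was 11.6% and 24.0% at 6 h and 31.7% and 17.7% at 24 h. Fpr-rs3, a gene of the formyl peptide receptor family, moved in opposite directions in the treatments (0.0632 in vehicle and -0.941 in IL-26), and this difference was not tested.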

How the results depend on the processing

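Among lists whose median was large enough to count as a shift, 0 turned direction under any alternative. Lists with medians near 0 were not checked for a turn. Under the local background, 0 genes were called (0 higher, 0 lower, 0 list members against 453), and 2-fold counts became 67 higher and 50 lower in both treatments, 1050 in vehicle (641 and 409) and 399 in IL-26 (265 lower). Among named genes it turned Adar (-0.159), Ccnd1 (0.093), Fgfr1 (0.060), Gbp4 (-0.018), Gclm (0.533), Herc6 (-0.051), Ifi203 (-0.177), Isg20 (-0.975), Mt1 (2.044), Nusap1 (-0.317), Pdia6 (1.706), Pgk1 (-3.591), Slc1a4 (-0.013), Stard4 (-0.801), Tapbp (-0.486) and Ube2l6 (-0.226). Under the other alternatives 1 named gene turned, the dim Fpr-rs3 without the IL-26 array of 6 h (range -0.952 to 0.074 over the arrays left out). Without the trend of the prior, 3548 genes were called (1736 lower). With time alone in the fit, 4781 genes were called (2422 higher, 2359 lower), and leaving 1 array out of that fit gave 2717 to 4459 calls (1398 to 2327 higher, 1319 to 2132 lower), with the lone array of a group assumed to vary like the others, and 14 to 20 of 282 named genes lost their call, against 8 with all arrays and time alone. The 142 genes past 2-fold in both treatments became 235 at an offset of 16 (181 and 54), 65 at 150 (57 and 8), 437 in the deposited processed values (296 and 141) and 577 at a threshold of 1.5-fold (350 and 227). The 196 in vehicle became 316 (228 and 88), 82 (70 and 12) and 891 (417 and 474) under these first 3 settings, and the 196 in IL-26 became 333 (229 and 104), 89 (71 and 18) and 1004 (538 and 466). The fit with treatment as a covariate compares the times within each treatment, and the labels give no other pairing. The limit on dim genes is the signal over the blank spots.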
